A study of Mus musculus with 4 samples.

Results

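The 10 genes described here encode transcriptional regulators of astrocytes: the SOX factors Sox9 and Sox2, the nuclear factor I (NFI) genes Nfia, Nfib and Nfix, the ID genes Id2, Id3 and Id4, and the repressors Hes1 and Hes5. They were chosen by symbol for what their products do, and all 10 were among the 55471 genes counted and among the 15816 genes tested. The question was how the ribosome-bound RNA of these regulators differed between mice fed cuprizone and control mice. In the libraries from cuprizone-fed mice no regulator passed the test of change. Nfix, Sox2 and Id2 lay above the mock libraries in both cuprizone libraries, Nfib, Id3, Hes1 and Hes5 lay below them in both, and Sox9, Nfia and Id4 overlapped.

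SOX and NFI factors bind DNA directly and are best known in this lineage for the switch of neural progenitors from making neurons to making glia: Sox9 is needed for that switch, induces Nfia and then works together with it on astrocyte genes. ID proteins are helix-loop-helix proteins without a DNA-binding region. They pair with E proteins, the partners of the neurogenic bHLH factors, and keep them off DNA. Id genes are classical targets of bone morphogenetic protein (BMP) signals, whereas Hes1 and Hes5 are classical targets of Notch and encode repressors of proneural genes. All of these proteins work in the nucleus and are made on free ribosomes, unlike many astrocyte markers, which are membrane or secreted proteins.

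The data were RNA-seq counts from 2 cuprizone and 2 mock libraries. Cuprizone is a copper chelator that, given in the diet, leads to loss of oligodendrocytes and myelin. Per the labels, the mice of both groups were GFAP-Cre+/- Rpl22HA/wt: Cre under the GFAP promoter switches 1 allele of the ribosomal protein gene Rpl22 to an HA-tagged form, and the tagged ribosomes were pulled down with their RNA. The labels name brain as the tissue, 3 weeks as the time point and batch 1 for all 4 libraries. The design text describes males of 8 to 9 weeks given chow with 0.2% cuprizone by weight or a normal diet, and dissected corpus callosum. It names collection at 5, 5.5 and 7 weeks, none of which is the labelled time; the labels' time is used here. Which GFAP-Cre line was used, and whether a library came from 1 animal or several, is not given in the sources used here, and a p-value here rests on the spread among 4 libraries, which may be technical.

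The libraries held 21209517 to 23822620 counts, and 3 counts corresponded to 0.126 to 0.141 CPM, the count scaled to the library total. Over all genes, 13 passed the edgeR quasi-likelihood test at a Benjamini-Hochberg adjusted p under 0.05, which is 0.0822% of the genes tested. All 64 astrocyte markers examined had counts in every library. Gfap itself, the gene of the astrocyte intermediate filament whose promoter drives Cre, stood at 385 and 451 CPM in the cuprizone libraries, against 963 and 870.4 CPM in the mock libraries. Its log2 fold change was -1.20 (SE 0.15) with an edgeR adjusted p of 0.0838. DESeq2 (adjusted p = 1.6e-09) and limma-voom (adjusted p = 0.023) called Gfap, with adjusted p from 1.6e-09 to 0.335 over all alternatives. Rpl22, summed over tagged and untagged alleles, stood at 42.2 and 27.5 CPM in cuprizone and 40.6 and 40.1 CPM in mock libraries. Markers of other cell types were also present: 12 neuronal genes made up 1.62% and 1.62% of the counts in cuprizone libraries, against 1.40% and 1.45% in mock libraries. Microglial markers made up 0.00206% and 0.00207% in cuprizone and 0.0033% and 0.00469% in mock libraries, with Cx3cr1 and Aif1 at 0 in both cuprizone libraries, and endothelial markers at most 0.00177% in any library. In RNA of this kind, fewer cells of a type and less RNA per cell cannot be told apart.

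Among the regulators, Id2, Sox9 and Id3 had the highest levels per length and Hes1 the lowest. Divided by exonic length, Id2 reached 258 CPM per kb in cuprizone and 189.7 CPM per kb in mock libraries, as group means. Sox9 followed at 79.6 in cuprizone and 68.1 in mock, and Id3 at 73.2 in cuprizone and 89.7 in mock. In the middle were Nfix with 40.0 CPM per kb in cuprizone and 28.3 in mock, and Hes5 with 20.0 in cuprizone and 29.3 in mock. Nfia (16.5 in cuprizone, 12.5 in mock), Sox2 (14.1 and 11.1), Id4 (11.2 and 10.9) and Nfib (10.5 and 11.5) lay close together, and Hes1 had 3.31 in cuprizone and 5.02 in mock. Sox9 and Id3, and likewise Nfix and Hes5, exchange places in this order between the groups. Nfib lies below Sox2 and Id4 in cuprizone and above both in mock. The 10 genes together held 0.169% and 0.196% of the counts of the cuprizone libraries, against 0.133% and 0.174% of the mock libraries, so the summed levels of the groups overlap.

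**Figure D1:**
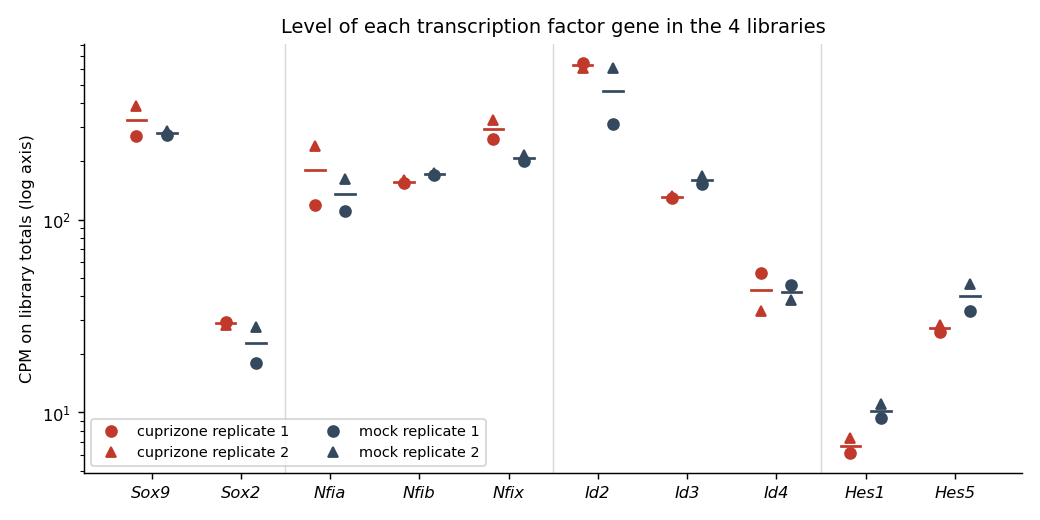
Level of each regulator in CPM (log axis) in every library, grouped by gene family, with 2 cuprizone libraries left of 2 mock libraries. Nfix lies between 261 and 327 CPM in cuprizone libraries and between 200.05 and 217 CPM in mock libraries, while the groups of Sox9, Nfia and Id4 overlap.

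No regulator passed the edgeR test in either direction, 0 of 10. Of all genes tested 0.0822% passed, 0.0316% higher and 0.0506% lower in cuprizone, so a count of 0 among 10 is near the background. Nfix alone had an unadjusted p under 0.05, as had 12.8% of all genes, and DESeq2 and limma-voom called 0 of the 10. The groups did not overlap for 7 of the 10 genes, 3 higher and 4 lower in cuprizone, while over all tested genes the groups did not overlap for 44.6%, with 25.7% higher and 18.9% lower. Of the 10 folds 5 were positive and 5 negative, where 49.9% of all genes had a negative fold. The median log2 fold of the 10 was 0.06, beside 0.00056 over all genes.

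**Figure D2:**
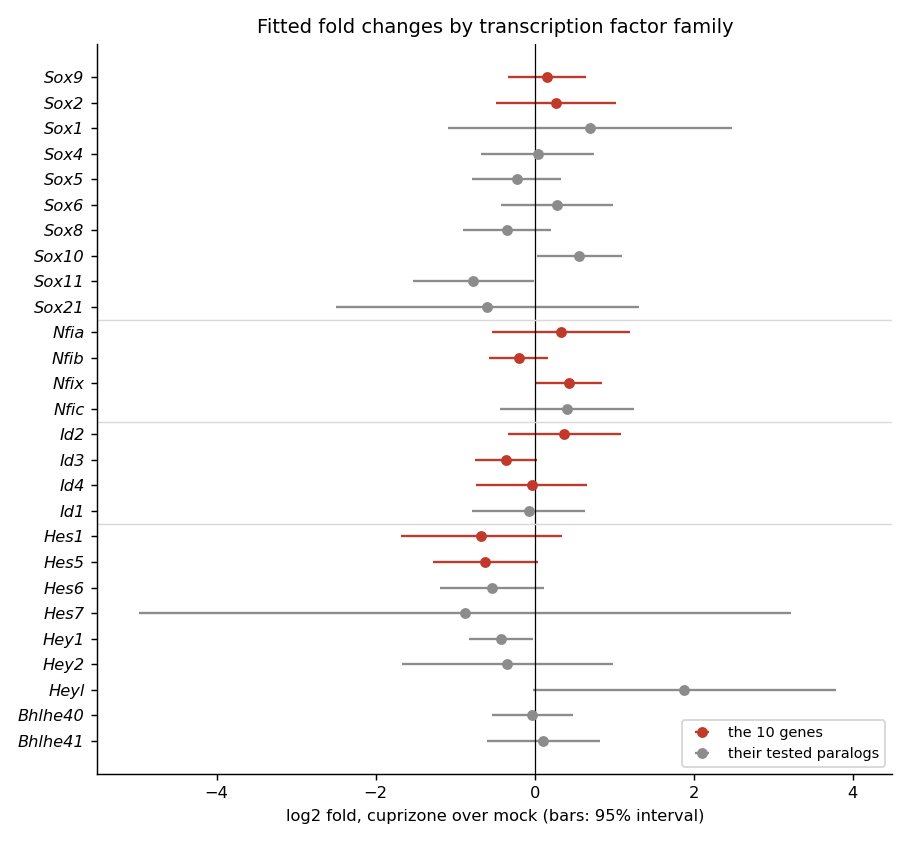
Log2 fold change, cuprizone over mock, of the 10 regulators and their tested paralogs from the edgeR fit, with 95% intervals. Only the interval of Nfix among the 10 regulators lies above 0, from 0.01 to 0.85, and it did not pass after adjustment over all genes.

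Sox9 (ENSMUSG00000000567, chr11:112782224-112787760, plus strand, GRCm38) had 269.6 and 388 CPM in cuprizone libraries 1 and 2, against 275 and 289 CPM in mock libraries 1 and 2. Cuprizone library 2 stood above the other 3 libraries, which lay close together. The log2 fold was 0.16 (SE 0.21, 95% interval -0.34 to 0.65) with an edgeR adjusted p of 0.848. Without cuprizone library 2 it was -0.14.

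Sox2, a factor of neural stem cells that astrocytes and their progenitors retain (ENSMUSG00000074637, chr3:34650405-34652461, plus strand), had 29.4 and 28.5 CPM in cuprizone libraries, against 18.0 and 27.6 CPM in mock libraries. The groups did not overlap, yet mock library 2 lay close to both cuprizone libraries and mock library 1 stood below. The log2 fold of 0.27 (SE 0.31, 95% interval -0.48 to 1.03) had an edgeR adjusted p of 0.817, and without mock library 1 the fold was -0.0024. Sox2 lies within an intron of the long RNA Sox2ot on the same strand, and the 2 genes share no exon.

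Of 9 SOX paralogs 8 were tested and none passed with edgeR, DESeq2 or limma-voom, 2 with an unadjusted edgeR p under 0.05. Sox10, the factor of the oligodendrocyte lineage, had 60.8 and 58.9 CPM in cuprizone libraries, against 34.4 and 42.8 CPM in mock libraries (log2 fold 0.56, SE 0.22, edgeR adjusted p = 0.367). Sox11, a factor of immature neurons, lay lower, with 39.5 and 22.3 CPM in cuprizone and 52.2 and 48.0 CPM in mock libraries (-0.77, SE 0.32, edgeR adjusted p = 0.388). Sox6 was higher (0.28, SE 0.29) and Sox8 lower (-0.34, SE 0.23) without overlap of the groups. Sox1 (0.70), Sox4 (0.04), Sox5 (-0.22) and Sox21 (-0.59) overlapped between groups. Beside the higher Sox10 levels, the 12 oligodendrocyte and myelin markers summed to 1.02% and 1.34% of counts in cuprizone libraries, against 1.28% and 1.49% in mock libraries, with none at 0. The 8 oligodendrocyte precursor markers summed to 0.0102% and 0.0135% in cuprizone and 0.0162% and 0.0190% in mock libraries. The part of either cell type in the Sox10 values was not tested.

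Among the NFI genes, Nfix had the highest level and Nfia the widest spread. Nfix, a regulator of progenitor quiescence and glial maturation (ENSMUSG00000001911, chr8:84699876-84800344, minus strand), had 261 and 327 CPM in cuprizone libraries, against 200.05 and 217 CPM in mock libraries. Both cuprizone libraries lay above both mock libraries. The log2 fold was 0.43 (SE 0.17, 95% interval 0.01 to 0.85), with an unadjusted p of 0.0454 and an edgeR adjusted p of 0.38. Leaving out 1 library at a time gave folds of 0.25 to 0.59, the lowest of them without cuprizone library 2.

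Nfia, the partner of Sox9 at the onset of gliogenesis (ENSMUSG00000028565, chr4:97772734-98118874, plus strand), had 119 and 241 CPM in cuprizone libraries, against 111 and 161 CPM in mock libraries. It was the most variable of the 10 regulators within the cuprizone group, with 2.02-fold between its 2 libraries and 1.46-fold between the mock libraries. The log2 fold of 0.34 (SE 0.36, 95% interval -0.53 to 1.20) had an edgeR adjusted p of 0.794, and it was -0.27 without cuprizone library 2 and 0.76 without cuprizone library 1. Nfib, which acts beside Nfia in glial development (ENSMUSG00000008575, chr4:82290173-82705750, minus strand), varied little, with 154 and 159.9 CPM in cuprizone libraries, against 169.7 and 174 CPM in mock libraries. Its groups did not overlap, but the log2 fold was only -0.20 (SE 0.15, edgeR adjusted p = 0.672), between -0.24 and -0.16 when single libraries were left out. Nfic, the remaining member of the family, behaved by library like Nfia, with 76.7 and 133 CPM in cuprizone and 56.7 and 94.4 CPM in mock libraries (0.41, SE 0.35, edgeR adjusted p = 0.721). Genes on the opposite strand overlap exons of Nfia (E130114P18Rik) and Nfix (Lyl1 and G430095P16Rik). The same holds for 2 regulators described below, Id4 (A330033J07Rik and Gm49291) and Hes5 (Gm20421). The strand setting of the counting is not given in the sources used here.

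Cuprizone library 2, in which Nfia, Nfix, Nfic and Sox9 were highest, also stood apart in transcripts of cerebellar granule neurons, a cell type of another brain region. The 11 granule neuron markers summed to 0.0376% and 0.156% of counts in cuprizone libraries, against 0.0257% and 0.0227% in mock libraries. The number of these markers at 0 was 1 in cuprizone library 1 and 0 in cuprizone library 2, against 4 in each mock library. The transcription factor gene Neurod1 had 73.2 and 467.5 CPM in cuprizone libraries, against 38.3 and 29.9 CPM in mock libraries. Cbln3, a synaptic protein gene of granule neurons, had 22.4 and 331 CPM in cuprizone libraries and no counts in either mock library, and Gabra6, a GABA receptor subunit gene, had 11.8 and 214 CPM in cuprizone libraries and no counts in mock libraries. Zic1 had 8.47 and 67.4 CPM in cuprizone libraries, against 1.36 and 0.33 CPM in mock libraries. The part of these transcripts in the SOX and NFI levels was not tested. Without cuprizone library 2 the sign of the Sox9 and Nfia folds turned, as given above, and the Nfix fold was 0.25.

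**Figure D3:**
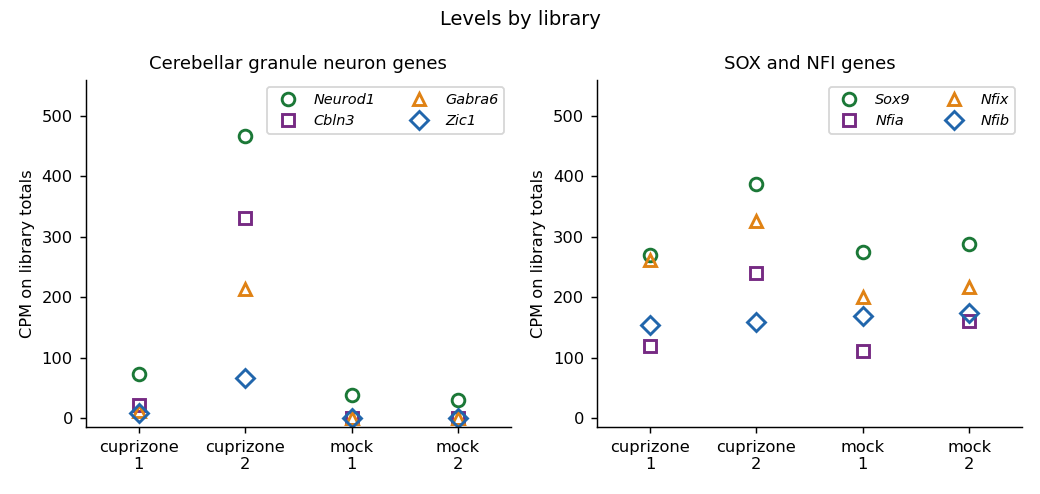
Levels in CPM by library of 4 cerebellar granule neuron genes (left) and of Sox9 and the NFI genes (right), cuprizone libraries left of mock libraries. Cuprizone library 2 is the highest for all 4 granule neuron genes and for Sox9, Nfia and Nfix, while Nfib lies between 154 and 174 CPM in all 4 libraries.

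Among the ID genes, Id2 lay higher, Id3 lower and Id4 overlapped between the groups. Id2 (ENSMUSG00000020644, chr12:25093799-25097140, minus strand) had 643 and 613 CPM in cuprizone libraries, against 314 and 611 CPM in mock libraries. Mock library 1 stood apart from the other 3 libraries, 1.94-fold below mock library 2. The log2 fold was 0.37 (SE 0.29, 95% interval -0.34 to 1.08, edgeR adjusted p = 0.689), and without mock library 1 it was -0.03.

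Id3, a BMP-induced inhibitor (ENSMUSG00000007872, chr4:136143497-136145755, plus strand), had 129 and 133 CPM in cuprizone libraries, against 152 and 169 CPM in mock libraries. Here the cuprizone libraries lay close together and below both mock libraries. The log2 fold was -0.36 (SE 0.16, 95% interval -0.75 to 0.02) with an unadjusted p of 0.0618 and an edgeR adjusted p of 0.423, and it ran from -0.44 to -0.26 with single libraries left out. Id4 (ENSMUSG00000021379, chr13:48261228-48266026, plus strand), which in the adult brain is linked to stem cell quiescence, had 52.5 and 33.4 CPM in cuprizone libraries, against 45.6 and 38.1 CPM in mock libraries, so the groups overlapped. Its fold was -0.04 (SE 0.29) with an edgeR adjusted p of 0.984, and it turned positive under library-total scaling (0.04). The paralog Id1 overlapped as well, with 20.7 and 27.1 CPM in cuprizone and 22.8 and 25.3 CPM in mock libraries.

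Ribosome-bound RNA of the genes for E proteins, with which ID proteins pair, and for proneural bHLH factors was measured too. Of 9 listed E protein and proneural genes 6 were tested, 5 with positive folds. None passed with edgeR, DESeq2 or limma-voom, and 0 had an unadjusted edgeR p under 0.05. Tcf4, the most abundant E protein gene, had 617 and 664 CPM in cuprizone libraries, against 692 and 611 CPM in mock libraries (-0.09, SE 0.14). Olig1, an oligodendrocyte lineage factor, overlapped, with a fold of 0.02 (SE 0.33). Its relative Olig2 had 32.2 and 18.1 CPM in cuprizone and 12.8 and 12.8 CPM in mock libraries (0.90, SE 0.38, edgeR adjusted p = 0.401). The groups of Olig2 did not overlap, whereas Neurog2 and Atoh1 had no counts in any library.

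Hes5 and Hes1 were the pair of regulators with the largest log2 folds, both negative. Promoters are shown for HES family genes because Notch acts on them through the DNA-binding protein RBPJ. The motif searched was GTGGGAA on both strands, in the RefSeq promoter table (GRCm38.p6; 250 bases before to 50 bases after each start). It occurs in 6.38% of the 32851 promoters. Rows were found for 5 of 10 HES family genes, not for Hes1, and 3 of their 6 rows hold the letters. Those 3 are printed 5′ to 3′ up to the first annotated exon or the RefSeq start, with GTGGGAA or its reverse complement in capitals: Hes5 at chr4:154960673-154960922 (plus strand), Hey2 at chr10:30842802-30843033 (minus strand) and Hes7 at chr11:69120203-69120403 (plus strand).
Hes5: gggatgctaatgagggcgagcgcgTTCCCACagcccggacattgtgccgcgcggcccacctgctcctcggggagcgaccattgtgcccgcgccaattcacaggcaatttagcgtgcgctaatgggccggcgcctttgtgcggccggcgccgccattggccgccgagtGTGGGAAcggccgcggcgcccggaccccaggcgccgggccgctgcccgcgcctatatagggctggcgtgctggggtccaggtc
Hey2: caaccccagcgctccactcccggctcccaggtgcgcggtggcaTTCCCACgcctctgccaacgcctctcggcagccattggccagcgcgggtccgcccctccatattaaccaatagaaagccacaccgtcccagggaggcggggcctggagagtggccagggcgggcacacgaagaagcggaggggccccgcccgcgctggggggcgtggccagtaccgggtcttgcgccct
Hes7: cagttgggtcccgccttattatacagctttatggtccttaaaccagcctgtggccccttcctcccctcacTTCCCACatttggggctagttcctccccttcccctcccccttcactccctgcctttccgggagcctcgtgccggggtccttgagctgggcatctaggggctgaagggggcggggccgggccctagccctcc
Hes5 holds the letters at -226 on the minus strand and at -83 on the plus strand of the gene, counted from the RefSeq start. Hey2 holds them at -207 and, beyond the printed stretch, at -4, and Hes7 at -180. A match is a description of the letters and not evidence of binding.

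Hes5 (ENSMUSG00000048001, chr4:154960923-154962371, plus strand) had 26.2 and 28.3 CPM in cuprizone libraries, against 33.5 and 46.4 CPM in mock libraries. Both cuprizone libraries lay below both mock libraries, which differed more from each other. The log2 fold was -0.62 (SE 0.27, 95% interval -1.28 to 0.04) with an unadjusted p of 0.0604 and an edgeR adjusted p of 0.42. It was -0.34 at the smallest and -0.84 at the largest when 1 library was left out.

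Hes1 (ENSMUSG00000022528, chr16:30064384-30067796, plus strand) had 6.14 and 7.35 CPM in cuprizone libraries, against 9.36 and 11.1 CPM in mock libraries, from 134 and 175 counts in cuprizone and 207 and 235 counts in mock libraries. The groups did not overlap. The log2 fold of -0.67 (SE 0.42, 95% interval -1.68 to 0.34) had an edgeR adjusted p of 0.591 and ran from -0.82 to -0.52 with single libraries left out. Together the 2 genes had 32.3 and 35.6 CPM in cuprizone libraries, against 42.8 and 57.5 CPM in mock libraries.

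**Figure D4:**
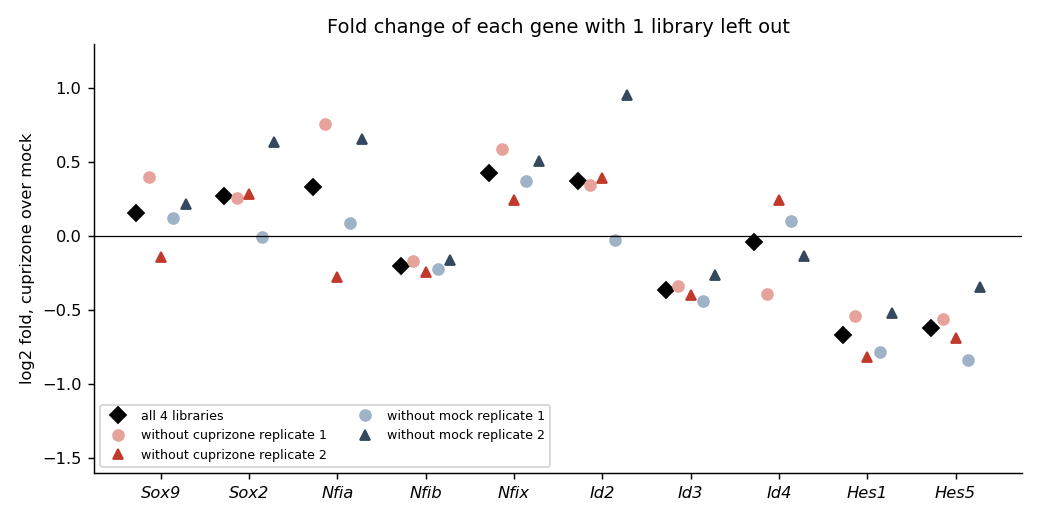
Log2 fold change, cuprizone over mock, of the 10 regulators with all 4 libraries and with each library left out in turn. Nfib, Id3, Hes1 and Hes5 stay below 0 and Nfix stays above 0 in every fit shown, while Sox9, Sox2, Nfia, Id2 and Id4 cross 0.

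Of 8 HES paralogs 7 were tested, 5 with negative folds. None passed with edgeR, DESeq2 or limma-voom, and 1 had an unadjusted edgeR p under 0.05. Hey1, another Notch target, had 135 and 136 CPM in cuprizone libraries, against 159 and 187 CPM in mock libraries (-0.42, SE 0.17, edgeR adjusted p = 0.366). Hes6, which counteracts Hes1, had 30.5 and 38.9 CPM in cuprizone and 55.3 and 40.8 CPM in mock libraries (-0.54, SE 0.27). Heyl went the other way without overlap, with 2.98 and 8.06 CPM in cuprizone and 1.72 and 1.13 CPM in mock libraries (1.88, SE 0.79, edgeR adjusted p = 0.399). Groups overlapped for Hes7 (-0.88, SE 1.70), Hey2 (-0.35, SE 0.55), Bhlhe40 (-0.03, SE 0.21) and Bhlhe41 (0.11, SE 0.29).

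Of the Notch genes, which act upstream of HES, none of the 29 tested passed, with 20 negative folds, 6 genes higher and 6 lower without overlap, and a median log2 fold of -0.23. Without mock library 2 that median was 0.075. Over all genes tested, 25.7% were higher and 18.9% lower without overlap, so the Notch counts without overlap are near the background. A negative fold was found for 49.9% of all genes. All 4 ligands and all 7 genes of receptor processing had negative folds, with medians of -1.46 for the ligands and -0.44 for processing. The ligands were scarce, together 0.000376% and 0.000865% of counts in cuprizone libraries, against 0.00105% and 0.00152% in mock libraries, and 1 of the 4 did not overlap. All ligand and processing genes encode proteins with a predicted hydrophobic segment (a mean Kyte-Doolittle hydropathy of 1.6 or more over 19 residues), a class in which 61.8% of all tested genes had negative folds, and the part of this in the Notch values was not tested. Ncstn, a subunit of the gamma-secretase that releases the Notch intracellular domain, had 28.6 and 41.4 CPM in cuprizone libraries, against 63.9 and 73.2 CPM in mock libraries (-1.04, SE 0.26, edgeR adjusted p = 0.218). It was the 1 gene of the list with an unadjusted p under 0.05 and the 1 that DESeq2 called, and limma-voom called 0. Notch1 itself was scarce, with 4.81 and 2.43 CPM in cuprizone and 6.29 and 6.74 CPM in mock libraries (-0.92, SE 0.59). Among the 4 genes of the nuclear complex 3 had positive folds, with a median of 0.59, and none of the 4 proteins has such a segment. The abundant modulators Dtx3 (-0.08, SE 0.21) and Mib1 (-0.17, SE 0.27) overlapped.

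BMP receptor genes, which stand upstream of the Id genes, had negative folds for all 5, 4 of them without overlap and with an unadjusted p under 0.05, at a median log2 fold of -0.81. Over all genes tested, 49.9% had a negative fold, 18.9% were lower without overlap and 12.8% had an unadjusted edgeR p under 0.05. All 5 receptors have a predicted hydrophobic segment, a class with a median log2 fold of -0.21 over all tested genes, and its part in the receptor values was not tested. Acvr2a had 8.84 and 9.40 CPM in cuprizone libraries, against 21.4 and 25.9 CPM in mock libraries (-1.44, SE 0.33, edgeR adjusted p = 0.194). Bmpr2 had 62.9 and 46.5 CPM in cuprizone and 74.4 and 84.8 CPM in mock libraries (-0.61, SE 0.22, edgeR adjusted p = 0.337). The 4 SMAD genes, which carry the signal to the nucleus, have no such segment and had a median of -0.03, with Smad5 at 0.04 (SE 0.34). Chrdl1, a secreted BMP antagonist, had 16.9 and 4.70 CPM in cuprizone and 20.5 and 23.5 CPM in mock libraries (-1.10, SE 0.59). None of the 19 BMP genes tested passed with edgeR or limma-voom, DESeq2 called 1, Acvr2a, and 12 had negative folds. In RefSeq promoters the SMAD element GGCGCC, present in 11.9% of promoters, was found once for Id2 (at -231) and once for Id4 (at -148), was not in the window of Id3, and was also found 4 times for Hes5 and once in 1 of 4 Nfix promoters. The SMAD box CAGAC, present in 49.6% of promoters, was found 2 times for Id3 and 0 times for Id2 and Id4. It was also found 2 times for Nfia and 1, 1, 0 and 3 times in the 4 Nfix promoters, and 0 times for Sox2 and Hes5. Both motifs were searched on both strands.

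Genes that Sox9 and Nfia are known to induce were examined beside the factors themselves. All 9 had negative folds and 8 were lower without overlap, with a median log2 fold of -0.71. Over all genes tested, 49.9% had a negative fold and 18.9% were lower without overlap. The edgeR test called none after adjustment and 6 before it at 0.05, while DESeq2 called 6 genes and limma-voom 1. Of all genes tested 12.8% had an unadjusted edgeR p under 0.05. DESeq2 called 761 of the 24824 genes with counts and limma-voom 47 of the 15816 tested. Aldoc, a glycolytic enzyme gene of astrocytes, had 2960.2 and 3248 CPM in cuprizone libraries, against 4763 and 3911 CPM in mock libraries (-0.55, SE 0.14). Slc1a3, the glutamate transporter GLAST, had 523 and 592 CPM in cuprizone and 899 and 867 CPM in mock libraries (-0.73, SE 0.14), and the fatty acid binding protein gene Fabp7 had 58.8 and 66.1 CPM in cuprizone and 109 and 98.6 CPM in mock libraries (-0.81, SE 0.19). These and Gfap are astrocyte markers themselves: 6 of the 9 genes are also on the marker lists.

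A list of 25 other transcription factors of astrocytes had none called by edgeR, 4 with an unadjusted p under 0.05, 11 positive and 14 negative folds and a median of -0.02, which was -0.13 without cuprizone library 1, -0.21 without cuprizone library 2, -0.19 without mock library 1 and 0.0637 without mock library 2. DESeq2 called 1 of them, Zbtb20, and limma-voom 0. Of all genes tested, 12.8% had an unadjusted edgeR p under 0.05 and 49.9% a negative fold, so those 2 counts are near the background. Over all genes, DESeq2 called 761 of the 24824 with counts and limma-voom 47 of the 15816 tested. Zbtb20, a zinc finger repressor of the astrocyte lineage, had the smallest p of the list, with 121 and 105 CPM in cuprizone libraries, against 222 and 219.9 CPM in mock libraries (-1.04, SE 0.16, edgeR adjusted p = 0.12). Emx2 had 6.82 and 3.40 CPM in cuprizone and 15.6 and 13.4 CPM in mock libraries (-1.57, SE 0.48, edgeR adjusted p = 0.272). The abundant Zeb2 (-0.30, SE 0.16) and Tsc22d4 (-0.32, SE 0.19) had smaller folds.

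Marker genes of astrocytes were grouped by where their proteins are made, on membrane-bound or on free ribosomes. The 14 secreted markers all had negative folds, with a median log2 fold of -1.12, and 3 of them fell: Apoe (-1.48, SE 0.11, edgeR adjusted p = 0.0176), Cpe (-1.49, SE 0.13, adjusted p = 0.0307) and Sparcl1 (-1.35, SE 0.12, adjusted p = 0.0307). The folds of these 3 genes were no longer past the threshold when either mock library was left out, at -1.53 and -1.40 for Apoe, -1.61 and -1.34 for Cpe, and -1.41 and -1.26 for Sparcl1, without mock library 1 and without mock library 2. Cst3, a secreted protease inhibitor, had a fold of -1.14 (SE 0.18). DESeq2 called 10 and limma-voom 6 of the secreted markers. Of all genes tested with edgeR, 0.0506% passed as lower in cuprizone and 49.9% had a negative fold. An unadjusted edgeR p under 0.05 was found for 12.8%. Over all genes, DESeq2 called 761 of the 24824 with counts and limma-voom 47 of the 15816 tested. Of 25 membrane markers 24 had negative folds, with a median of -0.51, and edgeR called 0 of them, DESeq2 9 and limma-voom 1, with 13 at an unadjusted edgeR p under 0.05. The glutamate transporter gene Slc1a2 stood at -1.68 (SE 0.22, edgeR adjusted p = 0.0845) and was called by DESeq2 (adjusted p = 7.36e-13) and limma-voom (adjusted p = 0.0266), with adjusted p from 7.36e-13 to 0.335 over all alternatives. For 25 soluble markers the median was -0.41 with 21 negative folds, and edgeR called 0, DESeq2 9 and limma-voom 2, with 14 at an unadjusted edgeR p under 0.05. Folds in this list ran from -1.20 for Gfap to 1.28 (SE 0.39) for the intermediate filament gene Vim, and the abundant creatine kinase gene Ckb had -0.13 (SE 0.19). The soluble markers made up 1.38% and 1.56% of counts in cuprizone libraries, against 1.97% and 1.79% in mock libraries, and the membrane or secreted ones 1.38% and 1.40% in cuprizone, against 2.68% and 2.94% in mock.

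To look for hydrophobic segments in the 10 regulators, the hydropathy of each protein was scanned in windows of 19 residues on the Kyte-Doolittle scale. A mean of 1.6 or more marks a predicted segment. The highest window of the 10 proteins ran from 0.54 in Sox9 to 1.26 in Id3, so none reached the threshold, while all 25 membrane markers and 9 of 14 secreted markers did. The other 5 secreted markers stayed below it, the lowest at 1.17, so the scan cannot show that a signal segment is absent. Over all tested genes with a protein, the 4823 with a segment had a median log2 fold of -0.21, with 61.8% negative, and the 8874 without one a median of 0.07, with 42.6% negative. At a threshold of 1.9 the medians were -0.36 with a segment and 0.08 without. The median of the 10 regulators was 0.06. Without cuprizone library 2 it was -0.19, when the median of all genes was -0.27 with a segment and 0.031 without one. The soluble astrocyte markers, of which 0 of 25 had a segment, stood at -0.41. The values describe these lists and no test of the difference was run.

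**Figure D5:**
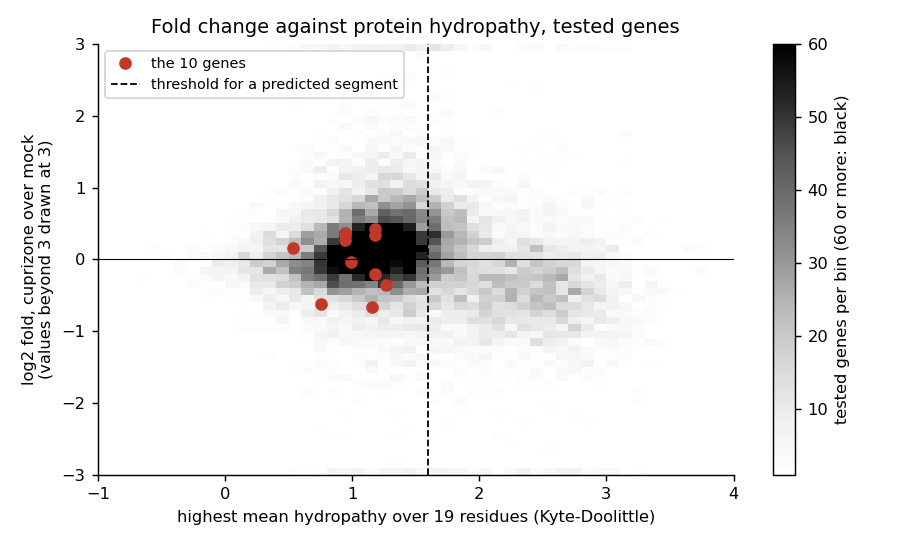
Log2 fold change, cuprizone over mock, against the highest mean hydropathy over 19 residues for every tested gene with a protein (shading, genes per bin) with the 10 regulators marked and the threshold of 1.6 drawn. The regulators lie between 0.54 and 1.26, left of the threshold, while genes to the right of it have a median log2 fold of -0.21.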

How the data were processed

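Ribosome-bound RNA of 2 cuprizone and 2 mock libraries was purified, selected by an RNA integrity number above 8 and made into libraries with a low-input kit, per the labels' protocols. The authors deposited raw counts per Ensembl gene, 1 table per library. Per the submitters' processing notes, FastQC 0.11.9, STAR 2.5.4b, featureCounts 1.6.0 and GRCm38 (mm10) were used; no source used here states the annotation release or strand setting. Symbols were matched for 55144 of 55471 genes, and coordinates and exonic lengths come from GENCODE M21, which may not be the release counted with.

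CPM were computed on library totals. All genes passing filterByExpr entered an edgeR 4.0.16 quasi-likelihood test under R 4.3.3 (TMM, glmQLFit with robust estimation, glmQLFTest, 2-sided, Benjamini-Hochberg over all 15816 genes, threshold 0.05, no covariate); the scripts were tested on simulated data. Alternatives were RLE and library-total scaling, no filter, a mean CPM of at least 1, DESeq2 1.42.0, limma-voom (limma 3.58.1), bias-adjusted dispersions, a replicate block and leaving out each library. Proteins were translated from GENCODE transcripts, and promoters are RefSeq's: 7 of the 10 regulators had one. Named genes are the 10 regulators, tested paralogs, Gfap, Rpl22 and, per other list, the called genes, the 2 most abundant and the 2 with the largest folds at a mean CPM of at least 5; the granule neuron genes, Neurog2 and Atoh1 were named after their values were seen; 1 gene chosen by this rule is not reported here. The 10 genes and all lists were chosen with earlier results of these data known. Values of 3 counts cover counting error only.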

Additional observations from a re-analysis of the deposited data

How the results depend on the processing

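None of the 10 regulators was called by edgeR, DESeq2 or limma-voom or under any of the other alternatives run. Nfib, Nfix, Id3, Hes1 and Hes5 had the same sign under all 12 alternatives, and the other 5 did not. Leaving out single libraries gave log2 folds of -0.14 to 0.40 for Sox9, -0.0024 to 0.64 for Sox2, -0.27 to 0.76 for Nfia, -0.0276 to 0.95 for Id2 and -0.39 to 0.25 for Id4. Among other named genes it gave -0.25 to 0.32 for Sox4, -1.995 to 0.10 for Sox21, -0.0582 to 0.84 for Nfic, -0.29 to 0.11 for Id1, -3.63 to 0.0114 for Hes7, -0.24 to 0.17 for Bhlhe40, -0.24 to 0.60 for Bhlhe41, -0.16 to 0.0004 for Tcf4, -0.43 to 0.47 for Olig1, -0.37 to 0.16 for Dtx3, -0.47 to 0.23 for Mib1, -0.29 to 0.47 for Smad5 and -0.44 to 0.13 for Ckb. Folds that kept their sign but moved by over 1.5 times, with single libraries left out, ran from 0.0017 to 2.20 for Sox1, -0.49 to -0.0008 for Sox5, -0.49 to -0.16 for Sox8, -1.23 to -0.42 for Sox11, -0.74 to -0.30 for Hes6, -0.54 to -0.28 for Hey1, -0.56 to -0.0657 for Hey2, 0.98 to 2.43 for Heyl, -0.50 to -0.0909 for Tsc22d4, 0.43 to 1.25 for Olig2, -1.48 to -0.52 for Notch1, -2.29 to -0.46 for Chrdl1 and 0.82 to 1.65 for Vim. With library totals, Id4 stood at 0.0367 and Bhlhe40 at 0.0373. The median over the 10 regulators ran from -0.19 to 0.046 with single libraries left out. The number of genes called over all was 13 with edgeR, 191 without the low-count filter, 68 with a mean CPM of at least 1, 761 with DESeq2, 47 with limma-voom, 51 with bias-adjusted dispersions and 5 to 123 with 1 library left out, and the cause was not tested. The replicate block gave 10 calls, without Sparcl1. The deviations of cuprizone library 1 and mock library 1 from their group means had a correlation of -0.012. With 2 libraries a group, the value for cuprizone library 1 with mock library 2 (0.012) only mirrors it. Such a value cannot show whether equal numbers share an animal or day, and the labels do not say. The difference between the hydropathy classes was 0.29, and 0.44 at the threshold of 1.9. With 2 libraries a group the precision was low: the narrowest interval among the 10 regulators, that of Nfib, ran from -0.57 to 0.17.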
